A study of Mus musculus with 12 samples.

Results

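The S100 family genes described here are 8 genes, S100a1, S100a4, S100a6, S100a8, S100a9, S100a10, S100a11 and S100a13, out of the 47643 gene identifiers that each deposited table lists. They were chosen by name, with earlier results of these data known. Each of them has 1 row in the table of F4/80lo and 1 row in the table of F4/80hi macrophages (Mϕ). S100 proteins are small calcium-binding proteins with a pair of EF-hand motifs that usually act as dimers. Calcium opens a surface through which they bind partners such as annexins, and several of them are also released from cells and act on receptors such as RAGE (encoded by Ager) and Tlr4. S100a8 and S100a9 together form calprotectin, which is abundant in neutrophils and in newly recruited monocytes, whereas S100a4, S100a6, S100a10 and S100a11 are expressed in many macrophages.

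Female C57/BL6 mice were given zymosan A, a yeast cell wall preparation, into the peritoneum (5 mg/kg), which causes an inflammation that resolves without treatment. From day 1 they were injected daily with compound III (CIII, 25 mg/kg), an inhibitor of the prostaglandin E synthase mPGES-1, or with its vehicle (VEH), a mixture of Tween-80, carboxymethyl-cellulose and NaCl. At day 6 CD45+ CD11b+ Mϕ were sorted from the peritoneal lavage into F4/80lo cells (low F4/80 and MerTK, MHCII+) and F4/80hi cells (high F4/80 and MerTK). In the gating the study describes, CD11c+ MHCII+ dendritic cells were set apart before. Ly6G+ neutrophils and MHCII-negative monocytes were set apart from the F4/80lo cells. Then 3′ mRNA libraries were sequenced from 3 samples of each of the 4 groups. There were no libraries from mice without zymosan, so every value belongs to inflamed or resolving peritoneum.

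All 8 genes lie on chromosome 3 (GRCm38). S100a1 (90511034-90514392, minus strand), S100a13 (90514435-90524581, plus), S100a4 (90603771-90606045, plus), S100a6 (90612882-90624181, plus), S100a8 (90668978-90670035, plus) and S100a9 (90692632-90695721, minus) stand close together, and S100a11 (93520488-93526287, plus) and S100a10 (93555080-93564643, plus) stand next to each other farther along. S100a4 overlaps the gene model Gm42674 on the same strand, which held 1 read over the 12 libraries. S100a11 has processed pseudogenes that are nearly identical to its transcript over 297 bases, Gm12854 (99.0% identity, 3 reads in all) and Gm7665 (98.7%, 18 reads), so a part of its reads may have been left out or assigned to them.

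RefSeq start sites (GRCm38.p6) with the 250 bases before and the 50 after them were found for 7 of the 8 genes, S100a10 being the one without. The windows of S100a8 and S100a11, which differed between CIII and VEH at an unadjusted p under 0.05 in F4/80hi Mϕ, and of S100a9, whose protein pairs with S100a8, are shown with capitals at matches on either strand to the letters of a TATA box (TATAAA), an ETS core motif (GAGGAAG), a C/EBP type motif (TTNNGCAA), an AP-1 type motif (TGANTCA) and a GC box (GGGCGG). They are given 5′ to 3′ along the gene, at chr3:90668821-90669120 on the plus strand, chr3:90695672-90695971 on the minus strand and chr3:93520246-93520545 on the plus strand.
S100a8: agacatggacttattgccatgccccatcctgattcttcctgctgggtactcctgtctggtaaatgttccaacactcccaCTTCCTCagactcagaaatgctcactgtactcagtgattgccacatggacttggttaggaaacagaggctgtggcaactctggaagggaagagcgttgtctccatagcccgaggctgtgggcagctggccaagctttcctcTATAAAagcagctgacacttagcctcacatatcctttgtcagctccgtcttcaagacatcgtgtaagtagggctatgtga
S100a9: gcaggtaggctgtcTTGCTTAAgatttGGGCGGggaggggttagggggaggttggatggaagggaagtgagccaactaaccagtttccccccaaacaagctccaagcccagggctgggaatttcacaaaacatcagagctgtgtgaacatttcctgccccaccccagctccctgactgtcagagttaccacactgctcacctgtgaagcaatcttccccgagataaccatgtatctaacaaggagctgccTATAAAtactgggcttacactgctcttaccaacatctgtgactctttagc
S100a11: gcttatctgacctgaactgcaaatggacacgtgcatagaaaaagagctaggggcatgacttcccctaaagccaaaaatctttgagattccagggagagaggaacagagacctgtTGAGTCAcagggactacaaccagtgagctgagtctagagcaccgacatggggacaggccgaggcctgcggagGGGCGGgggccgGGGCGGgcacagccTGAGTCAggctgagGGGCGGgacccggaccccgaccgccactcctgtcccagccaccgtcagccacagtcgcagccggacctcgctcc

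TATAAA was found in the windows of S100a8 (from position -30 relative to the start), S100a4 (from -31) and S100a9 (at the start itself), and 13.6% of all 32851 windows hold it. GAGGAAG was found in S100a8 and S100a4 (13.6% of all windows), and TTNNGCAA in S100a9 alone of the 7 (10.8%). TGANTCA was found at 2 places in S100a11 and in no other member (7.81% of all windows), and GGGCGG at 3 places in S100a11 and at 1 in S100a9 (35.7%). The windows of S100a1, S100a6 and S100a13 held none of these letters. A match is a match of letters only.

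S100a1 and S100a13 start head to head, and their windows share 204 bases. The window of S100a13 (chr3:90514185-90514484, plus strand) is shown with those shared bases in capitals, because the levels of both genes are compared below.
S100a13: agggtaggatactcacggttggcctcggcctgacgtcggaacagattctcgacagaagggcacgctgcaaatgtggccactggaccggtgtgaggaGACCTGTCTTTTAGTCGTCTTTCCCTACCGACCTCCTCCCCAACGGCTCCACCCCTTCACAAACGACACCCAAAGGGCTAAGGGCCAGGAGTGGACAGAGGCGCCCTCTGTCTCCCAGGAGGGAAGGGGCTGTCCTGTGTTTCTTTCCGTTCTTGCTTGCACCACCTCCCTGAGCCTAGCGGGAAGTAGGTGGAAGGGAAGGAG

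The 12 libraries held 426624 to 3389448 reads on genes, so that 3 reads, the most that a count of 0 allows, were worth 0.885 to 7.03 reads per 1000000 reads on genes (RPM). Intervals and limits of this kind cover counting error only. Several of the number 3 libraries stood apart from their group. The gene model Gm42418 took 14.3% of the reads of VEH F4/80lo, 7.82% of VEH F4/80hi, 2.65% of CIII F4/80lo and 2.86% of CIII F4/80hi replicate 3, and at most 0.579% of any other library, and its part in the S100 values was not tested. The library labelled VEH F4/80hi replicate 3 held 366 RPM of Adgre1, the gene of F4/80, against 1064 and 1336 in replicates 1 and 2, and 20.9 of Cd5l, a gene of resident Mϕ, against 2786 and 4018. It also held 1199 of Ccr2 and 336 of Ly6c2, genes of monocytes, against at most 52.5 and 4.14 in the other libraries of its group. CIII F4/80hi replicate 3 held 368 of Adgre1 (1145 and 1204 in the others) and 3984 of H2-Ab1, an MHCII gene (1480 and 433), and VEH F4/80lo replicate 3 held 680 of H2-Ab1 (3700 and 4563). Mertk, the gene of the other sort marker of F4/80hi cells, showed no comparable drop. It was at 169 in VEH F4/80hi replicate 3 (181 and 272 in the others) and at 330 in CIII F4/80hi replicate 3 (359 and 435). MHCII did not define the F4/80hi cells in the sort. By Adgre1 or H2-Ab1 these 3 libraries therefore went in part against their sort labels. CIII F4/80lo replicate 3 did not, with 5528 of H2-Ab1 (8376 and 4273 in the others) and 205 of Adgre1 (381 and 258). The differences between CIII and VEH of the tested S100 genes are also given without all 4 number 3 libraries. So are those of the partners and receptors named below with log2 differences, Il1a aside.

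Of 13 neutrophil markers listed, those that define the cells most closely were at or near 0 and others were not. Ly6g, which defines neutrophils, had 1 read in VEH F4/80lo replicate 3, 1 in CIII F4/80lo replicate 1 and 0 in the other 10 libraries, and Camp and Ngp had no read in any. The list summed to 41.0 to 62.2 RPM in VEH F4/80lo, 31.5 to 58.6 in CIII F4/80lo, 11.04 to 57.1 in VEH F4/80hi and 27.5 to 55.9 in CIII F4/80hi libraries. Of these, Csf3r, which monocytes and Mϕ also express, made up 8.28 to 48.4 RPM. Mmp9 reached 22.6 RPM (VEH F4/80lo replicate 2), Retnlg 15.5 (VEH F4/80lo replicate 1) and Lcn2 11.4 (VEH F4/80hi replicate 3), levels within the range of S100a8 given below, and the part of these genes in the S100 values was not tested.

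**Figure D1:**
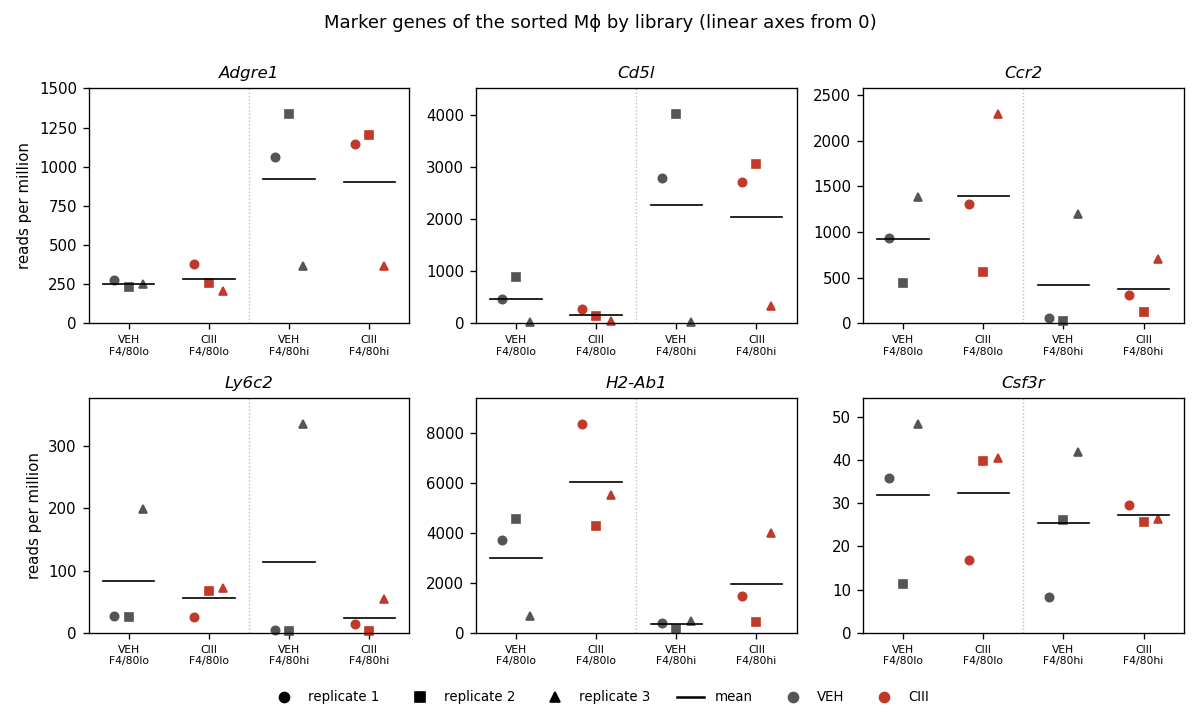
RPM (y axes, linear from 0) of 6 marker genes in each of the 12 libraries, by group (x axes). Points are libraries, with shapes for the replicate number, and lines are group means. The triangles of VEH F4/80hi and CIII F4/80hi lie at 366 and 368 for Adgre1, far below the other F4/80hi libraries, and that of VEH F4/80hi at 1199 for Ccr2, far above them.

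To ask whether CIII altered expression of the S100 genes in either subpopulation, the deposited normalized counts were compared on the log2 (normalized count + 1) scale with limma. Of the 8 members, 7 were tested in each subpopulation, and S100a9 fell below the minimum mean of 3 normalized counts. No member passed an adjusted p of 0.05 in F4/80lo or in F4/80hi Mϕ, and 0% of all genes tested did so in either. At an unadjusted p under 0.05, S100a8, S100a10 and S100a11 were called in F4/80hi Mϕ, all lower with CIII, against 3.93% of the 10499 genes tested, and 0 members in F4/80lo Mϕ, against 2.7% of 10718. On recovered reads, edgeR and DESeq2 each called 3 members in F4/80hi (3.89% and 4.03% of all genes) and 1 in F4/80lo Mϕ, S100a11 (2.67% and 2.76%). The values below are thus descriptions of differences that were not past the threshold over all genes. In these sorted bulk samples, fewer cells of a type and less RNA per cell cannot be told apart.

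S100a8, the calprotectin subunit that can also stand alone as a homodimer, was the tested member with the largest difference between CIII and VEH in F4/80hi Mϕ. Its normalized counts in F4/80hi Mϕ were 39.9, 24.8 and 81.8 in the VEH libraries and 12.3, 6.01 and 13.7 in the CIII libraries, in the order of their replicate numbers. Every CIII library lay below every VEH library. The means were 48.8 ± 29.5 and 10.6 ± 4.08 (SD, n = 3), from 127 and 47 reads in all. The log2 difference was -2.00 (SE 0.56, 95% interval -3.26 to -0.74), a 4.0-fold lower level, with an adjusted p of 0.992 in limma. In F4/80lo Mϕ S100a8 was read 3 to 9 times in 5 libraries and 75 times in VEH replicate 3. Its normalized counts there were 10.5, 7.70 and 25.0 with VEH and 4.26, 6.85 and 7.74 with CIII. The groups overlapped at the lower end, between CIII replicate 3 and VEH replicate 2, and the log2 difference was -0.95 (SE 0.69, 95% interval -2.47 to 0.57, adjusted p = 1.00).

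The log2 difference of S100a8 without the number 3 libraries was -1.75 in F4/80hi Mϕ (adjusted p = 0.685) and -0.64 in F4/80lo Mϕ. VEH replicate 3 was the highest library of its group in both subpopulations, and without that library alone the differences were -1.55 and -0.49. S100a8 was lower with CIII in each of the 3 replicate numbers in both subpopulations.

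S100a9, the other calprotectin subunit, was close to the limit of detection. It had 14 reads in VEH F4/80lo replicate 3, 8 in VEH F4/80hi replicate 3, 1 in each of the CIII replicate 1 libraries and 0 in the other 8 libraries, which allows up to 1.72 to 7.03 RPM in those. The normalized counts of the libraries with reads were 4.66, 8.39, 0.709 and 0.722. The reads of S100a9 thus lay almost entirely in the VEH replicate 3 libraries, which also held the most Ly6c2 of their subpopulations (199 and 336 RPM), and no fold is given. It was tested only where no minimum mean was set, and no member passed an adjusted p of 0.05 there. The part of these markers in the S100a8 and S100a9 values was not tested. Over the 12 libraries S100a8 had 280 reads and S100a9 24. In the VEH replicate 3 libraries, Lcn2 had 11 reads (F4/80lo) and 12 (F4/80hi) and Mmp8 5 and 2, against at most 1 in the other VEH libraries, and Lcn2 also had 12 in CIII F4/80hi replicate 1. Ly6g had 1 and 0 reads in the VEH replicate 3 libraries, Retnlg 0 and 0 (13 and 5 in VEH F4/80lo replicates 1 and 2) and Mmp9 1 and 2 (6 and 16 in those replicates), so the markers did not go one way.

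S100a10, also called p11, forms a tetramer with annexin A2 at membranes. In F4/80hi Mϕ its normalized counts were 439, 366 and 609 with VEH and 288, 163 and 240 with CIII. All CIII libraries lay below all VEH libraries, with means of 471 ± 125 and 230 ± 62.8 (SD, n = 3). The log2 difference was -1.03 (SE 0.36, 95% interval -1.85 to -0.22, adjusted p = 0.992). The counts in F4/80lo Mϕ were 408, 340 and 411 with VEH and 335, 114 and 239 with CIII. Here too the groups did not overlap, although CIII replicate 1 was within 6 normalized counts of the lowest VEH library. The log2 difference was -0.88 (SE 0.41, 95% interval -1.78 to 0.03, adjusted p = 1.00). The differences without the number 3 libraries were -0.88 in F4/80hi and -0.93 in F4/80lo Mϕ. Without CIII replicate 2 alone, its lowest library, the difference in F4/80lo Mϕ was -0.44.

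S100a11, which binds annexin A1 and takes part in membrane repair, showed the same direction in both subpopulations. Its normalized counts in F4/80hi Mϕ were 499, 208 and 225 with VEH and 103, 195 and 104 with CIII. The groups did not overlap, but VEH replicate 2 and CIII replicate 2 were close. The log2 difference was -1.16 (SE 0.44, 95% interval -2.15 to -0.17, adjusted p = 0.992). The counts in F4/80lo Mϕ were 434, 362 and 208 with VEH and 176, 238 and 138 with CIII. CIII replicate 2 lay above VEH replicate 3, and the log2 difference was -0.83 (SE 0.38, 95% interval -1.67 to 0.01, adjusted p = 1.00). Leaving out the number 3 libraries gave differences of -1.18 in F4/80hi and -0.95 in F4/80lo Mϕ.

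**Figure D2:**
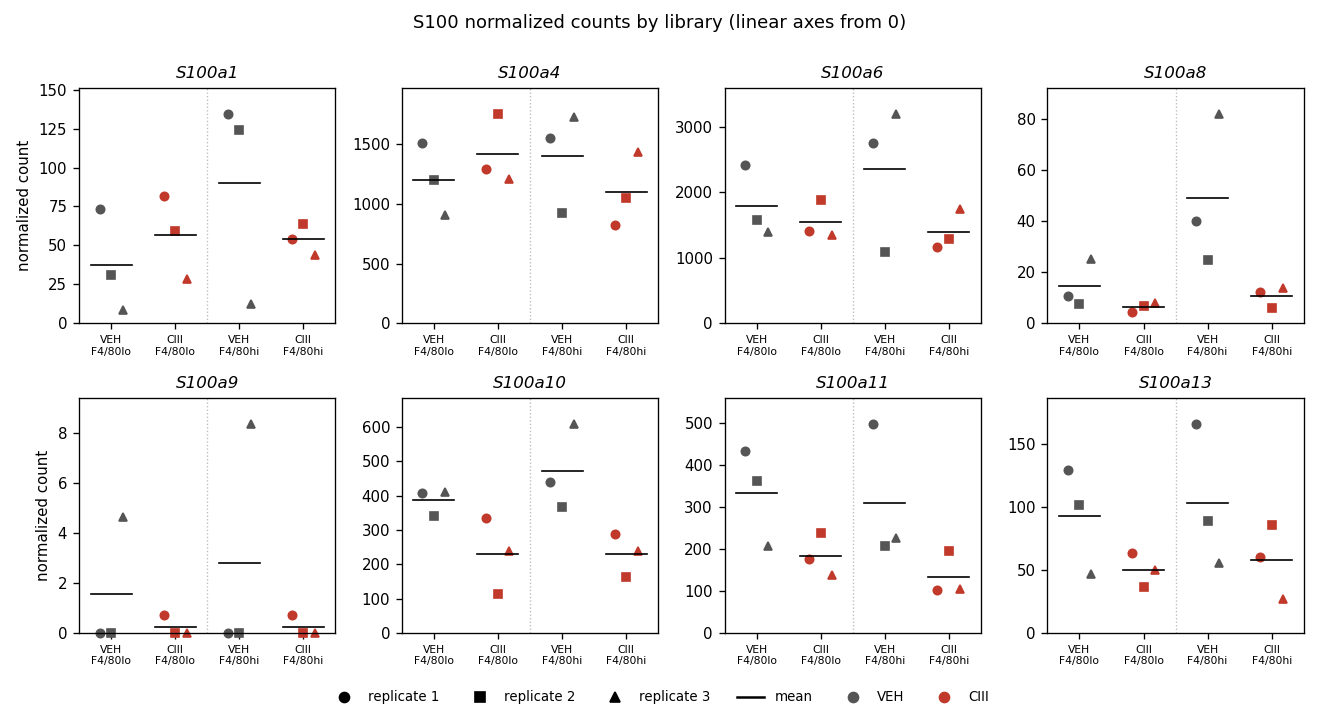
Deposited normalized counts (y axes, linear from 0) of the 8 S100 genes in each library, by group (x axes); counts of F4/80lo and F4/80hi libraries were normalized separately by the authors. Points are libraries, with shapes for the replicate number, and lines are group means. In F4/80hi Mϕ the CIII libraries lie below all VEH libraries for S100a8 (6.01 to 13.7 against 24.8 to 81.8), S100a10 and S100a11, and S100a9 is above 1 only in the VEH replicate 3 libraries.

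S100a13, which takes part in the release of proteins without a signal peptide such as Il1a, was measured at 129, 101 and 47.0 normalized counts with VEH and 63.8, 36.6 and 49.8 with CIII in F4/80lo Mϕ. The VEH replicate 3 library lay among the CIII libraries. The log2 difference was -0.79 (SE 0.45), and without the number 3 libraries it was -1.23. The counts in F4/80hi Mϕ were 166, 88.8 and 55.6 with VEH and 60.6, 85.3 and 26.8 with CIII. These groups overlapped, and the log2 difference was -0.84 (SE 0.54) with all libraries and -0.75 without the number 3 libraries. It was -0.43 without VEH replicate 1 alone and -0.38 without CIII replicate 3 alone, and in F4/80lo Mϕ it was -0.49 without VEH replicate 1 alone.

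S100a1, best known from heart and skeletal muscle, where it binds calcium channels and pumps, shares its start region with S100a13 but not its direction in F4/80lo Mϕ. Its normalized counts there were 73.3, 30.8 and 8.66 with VEH and 81.6, 59.4 and 28.7 with CIII. The groups overlapped, with a log2 difference of 0.90 (SE 0.69), which was 0.12 without VEH replicate 3 alone. The counts in F4/80hi Mϕ were 134, 124 and 12.6 with VEH and 54.1, 63.7 and 43.8 with CIII. VEH replicate 3 lay below all CIII libraries and the other 2 VEH libraries lay above them. The log2 difference was -0.18 (SE 0.79) with all libraries and -1.12 without the number 3 libraries, while in F4/80lo Mϕ the latter was 0.54.

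S100a4, a partner of non-muscle myosin, and its neighbour S100a6, which binds annexins and other calcium-dependent partners, had no unadjusted p under 0.05 with all libraries. S100a4 was at 1509, 1198 and 907 normalized counts with VEH and 1297, 1754 and 1210 with CIII in F4/80lo Mϕ, and at 1557, 922 and 1732 with VEH and 824, 1049 and 1435 with CIII in F4/80hi Mϕ. The log2 differences were 0.25 (SE 0.39, 95% interval -0.60 to 1.10) and -0.33 (SE 0.42, 95% interval -1.27 to 0.61). S100a6 was at 2414, 1578 and 1401 normalized counts with VEH and 1403, 1882 and 1351 with CIII in F4/80lo Mϕ, and at 2758, 1096 and 3195 with VEH and 1167, 1290 and 1742 with CIII in F4/80hi Mϕ. Its log2 differences were -0.19 (SE 0.40, 95% interval -1.08 to 0.69) and -0.63 (SE 0.50, 95% interval -1.75 to 0.49). The groups overlapped in all 4 cases, and S100a6 with VEH alone varied from 1096 to 3195 normalized counts in F4/80hi Mϕ. Leaving out the number 3 libraries gave differences of 0.17 and -0.37 for S100a4 and -0.26 and -0.50 for S100a6, in the same order. With 1 library left out, S100a6 in F4/80hi Mϕ ran from -1.11 to -0.33 and S100a4 from -0.61 to -0.14, and in F4/80lo Mϕ S100a4 ran from 0.06 to 0.43.

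Of the 7 tested members, 5 were lower with CIII in F4/80lo Mϕ with a median log2 difference of -0.79, and 7 in F4/80hi Mϕ with a median of -0.84. Over all genes tested the medians were -0.05 and 0.05, and 54.1% and 46.5% of them were lower. Because the members were chosen with earlier results of these data known, this comparison is no test of the set. In F4/80lo Mϕ the groups did not overlap for 1 member, S100a10, against 4.92% of all genes with every CIII library below every VEH library, and in F4/80hi Mϕ for 3, S100a8, S100a10 and S100a11, against 5.76%. S100a8, S100a10 and S100a11 were lower with CIII in all 3 replicate numbers in F4/80lo Mϕ, against 15.7% of all genes, and those 3 and S100a13 in F4/80hi Mϕ, against 16.6%. The 6 markers listed for MHCII-high monocyte-derived Mϕ (H2-Aa, H2-Ab1, H2-Eb1, Ciita, Cd74 and the integrin gene Itgb7) were also summed. The sums were 1472, 810 and 1987 RPM with VEH and 5179, 1668 and 13960 RPM with CIII in F4/80hi libraries. In F4/80lo libraries they were 12680, 14340 and 3128 with VEH and 26690, 15000 and 18860 with CIII. Both subpopulations were thus higher with CIII in each replicate number. The paper reports H2-Eb1 and Itgb7 as raised by CIII in both subpopulations of these samples. This direction was therefore known beforehand and is no independent result. The part of these markers in the S100 differences was not tested. Because the replicate numbers went together with library deviations, a fit with the number as a block was also made. At an unadjusted p under 0.05 the blocked fit called S100a1, S100a10, S100a11 and S100a13 in F4/80lo Mϕ, against 6.89% of all genes, S100a1 being the higher one with CIII. In F4/80hi Mϕ it called S100a8, S100a10, S100a11 and S100a13, against 11.3%. The smallest adjusted p of a member in these blocked fits of CIII against VEH was 0.156, for S100a8 in F4/80hi Mϕ.

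Without the number 3 libraries, S100a11 and S100a13 had an unadjusted p under 0.05 in F4/80lo Mϕ (4.73% of all genes) and S100a1, S100a8 and S100a10 in F4/80hi Mϕ (6.97% of all genes), all of them lower with CIII. With 1 library left out, S100a10 in F4/80hi Mϕ no longer had an unadjusted p under 0.05 without VEH replicate 3 (log2 difference -0.83) or CIII replicate 2 (-0.81), nor did S100a11 without VEH replicate 1 (-0.76), CIII replicate 1 (-1.001) or CIII replicate 3 (-1.01), whereas S100a8 kept it in each case. Others came under 0.05 there, S100a1 (-1.26) and S100a13 (-1.21) without VEH replicate 3 and S100a6 (-1.11) without VEH replicate 2. With 1 F4/80lo library left out, S100a11 came under 0.05 without VEH replicate 3 (-1.14) or CIII replicate 2 (-1.03), S100a13 without VEH replicate 3 (-1.21), S100a10 without CIII replicate 1 (-1.22) and S100a1, higher with CIII, without VEH replicate 1 (1.59). Over these fits 2.22% to 9.88% of all genes were under 0.05 in F4/80hi and 1.44% to 6.24% in F4/80lo Mϕ. Single genes could not pass an exact permutation test, since 3 against 3 libraries allow no p below 0.1, and that value was reached where the groups did not overlap.

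**Figure D3:**
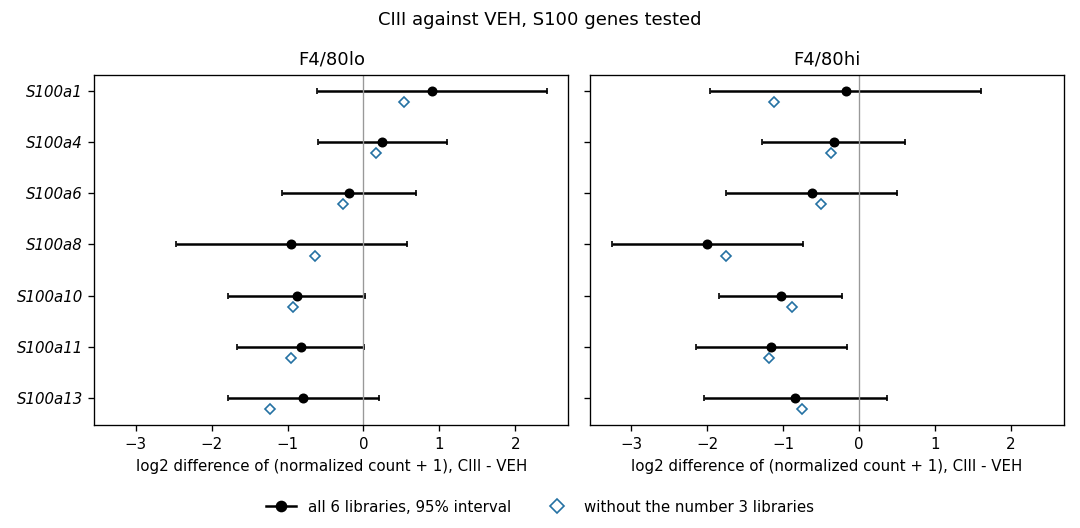
Log2 difference of (normalized count + 1) between CIII and VEH (x axes) for the 7 tested S100 genes (y axis) in F4/80lo (left) and F4/80hi (right) Mϕ. Filled points are the limma estimates with 95% intervals from 6 libraries, and open diamonds the estimates without the number 3 libraries. The intervals of S100a8, S100a10 and S100a11 lie below 0 in F4/80hi Mϕ, and none of the 7 excludes 0 in F4/80lo Mϕ.

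For a direct test of unequal responses, both subpopulations were set against each other as the difference of both log2 differences over all 12 libraries. It was above 0 for all 7 tested members, meaning a response that was less negative or more positive in F4/80lo Mϕ, whereas 55.9% of all genes were below 0. Leaving out the number 3 libraries put S100a10 (-0.04) and S100a13 (-0.48) below 0. With all libraries it was 1.05 (SE 0.84, 95% interval -0.75 to 2.85) for S100a8, or 1.115 without the number 3 libraries, and 1.08 (SE 1.18) for S100a1. The others ran from 0.05 for S100a13 to 0.58 for S100a4. Single libraries moved these values. Without VEH F4/80lo replicate 3 alone, S100a8 was at 1.51 and S100a1 at 0.30. Without VEH F4/80hi replicate 3 alone, S100a8 was at 0.60 and S100a1 at 2.16. No member passed an unadjusted p of 0.05, against 1.71% of the 10097 genes tested, nor an adjusted p of 0.05 (0% of all genes). Only S100a1 had an unadjusted p under 0.05 once the number 3 libraries were left out, with a difference of 1.66 (adjusted p = 0.992), against 3.22% of all genes. It was also called without VEH F4/80hi replicate 3 alone, where 318 of the 10097 genes were. The values in F4/80lo and F4/80hi Mϕ were thus not shown to differ for S100a8, S100a10 or S100a11.

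To compare the level of each gene between the subpopulations, recovered reads were scaled to RPM, since both tables had been normalized separately. With VEH, S100a8 was at 10.8, 8.47 and 22.1 RPM in F4/80lo and at 41.4, 27.5 and 74.2 in F4/80hi Mϕ. All F4/80lo libraries lay below all F4/80hi libraries, and the log2 difference of (RPM + 1), F4/80lo minus F4/80hi, was -1.71 (SE 0.57, 95% interval -2.92 to -0.50, adjusted p = 0.747). It was the only member with an unadjusted p under 0.05 (5.99% of the 10736 genes tested) or with groups that did not overlap in this direction (2.77%), and no gene passed an adjusted p of 0.05 (0%). No member passed it in the other fits either. In those, 14 genes did with the replicate block, 42 with library weights, 51 without the number 3 libraries and 20 in DESeq2. Genes that passed also numbered 8 without VEH F4/80lo replicate 3 alone and 20 without VEH F4/80hi replicate 3 alone. Without the number 3 libraries the difference was -1.72, and S100a1 was then lower in F4/80lo Mϕ as well (log2 difference -1.43), against 11% of all genes. The blocked fit called the same 2 genes, against 13.4% of all genes. The library labelled VEH F4/80hi replicate 3, with the highest S100a8 level of all, is one of the libraries with low Adgre1 and Cd5l described above, and without that library alone the log2 difference of S100a8 was -1.34 and no longer had an unadjusted p under 0.05.

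With CIII, S100a8 was at 4.61, 7.03 and 8.11 RPM in F4/80lo and at 13.6, 6.77 and 14.3 in F4/80hi Mϕ. CIII F4/80hi replicate 2 lay within the F4/80lo range, and the log2 difference was -0.69 (SE 0.57), or -0.66 without the number 3 libraries. No member had an unadjusted p under 0.05 in this comparison, against 5.23% of all genes, or an adjusted p under 0.05 (0%). With library weights S100a8 came under an unadjusted p of 0.05, as did 1415 of 10736 genes. By group mean, S100a8 was ordered VEH F4/80hi (47.7 RPM), VEH F4/80lo (13.8), CIII F4/80hi (11.6) and CIII F4/80lo (6.59), and only the first of these did not overlap with the next.

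The other members overlapped between F4/80lo and F4/80hi Mϕ under both treatments. Their log2 differences, F4/80lo minus F4/80hi, ran from -1.13 for S100a1 to 0.14 for S100a11 with VEH and from -0.16 for S100a10 to 0.43 for S100a11 with CIII. The last of these ran from 0.25 to 0.76 with 1 library left out. The value of S100a1 with VEH rested on single libraries, being -0.27 without VEH F4/80lo replicate 3 and -2.29 without VEH F4/80hi replicate 3, the latter at an unadjusted p under 0.05. S100a4 was at 803 to 1550 RPM in VEH F4/80lo, 1269 to 1800 in CIII F4/80lo, 1021 to 1617 in VEH F4/80hi and 911 to 1505 in CIII F4/80hi libraries, and S100a6 at 1241 to 2480, 1417 to 1931, 1213 to 2901 and 1291 to 1826. No order of the groups could be read for these, as all neighbours overlapped. S100a10 was at 364 to 419 and 405 to 553 RPM with VEH in F4/80lo and F4/80hi Mϕ, and at 117 to 363 and 184 to 319 with CIII.

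**Figure D4:**
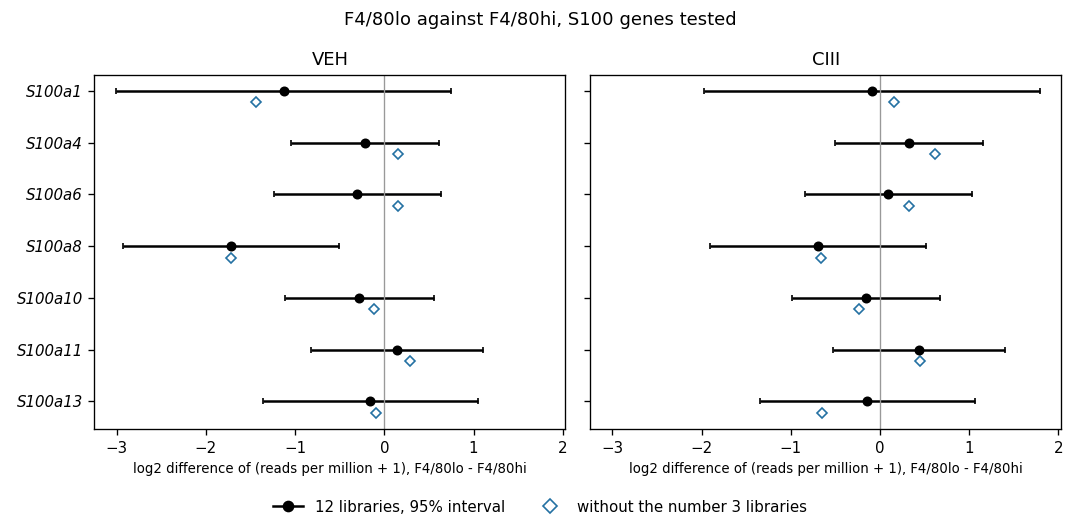
Log2 difference of (RPM + 1) between F4/80lo and F4/80hi Mϕ (x axes) for the 7 tested S100 genes (y axis), with VEH (left) and CIII (right). Filled points are limma estimates with 95% intervals from 12 libraries, and open diamonds the estimates without the number 3 libraries. Only the interval of S100a8 with VEH, at -1.71, lies wholly on one side of 0.

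Across the 12 libraries, after subtraction of the mean of each subpopulation, S100a4 and S100a6 varied together (Pearson r = 0.81 of log2 (RPM + 1)), as did S100a11 and S100a13 (r = 0.82). S100a8 went with S100a10 (r = 0.65) and against S100a1 (r = -0.51), and S100a1 and S100a13, which share their start region, had r = 0.55. These are descriptions over 12 libraries that share treatment and replicate number. Of 7912 genes with at least 10 RPM in each subpopulation, those most like S100a8 included Gm9843 (r = 0.89), Cstb (0.85), Anp32b (0.84) and Pdap1 (0.83). Those most like S100a4 were Higd2a (r = 0.88), Atp6v1f (0.86), and Plpp2, Atg12 and Ube2g1 (0.82 each).

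The rest of the S100 family was hardly detected. Of 10 other S100 genes listed, S100a7l2 was not matched in the tables, and over the 12 libraries S100a5 had 2 reads, S100a14, S100a16 and S100b had 1 read each, and S100a2, S100a3, S100a7a, S100g and S100z had none.

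Genes of known receptors and partners of S100 proteins were examined next, 21 in all. In F4/80lo Mϕ 16 were tested and 6 of them were lower with CIII (median log2 difference 0.13), and in F4/80hi Mϕ 17 were tested and 9 were lower (median -0.02). None passed an adjusted p of 0.05. Tlr4, a receptor of S100a8, was at 26.6, 32.7 and 61.8 normalized counts with VEH and 117, 58.9 and 91.9 with CIII in F4/80hi Mϕ, a log2 difference of 1.16 (SE 0.44, adjusted p = 0.992) with overlapping groups. In F4/80lo Mϕ it was 0.78 (SE 0.48), and without the number 3 libraries the differences were 1.46 and 0.94. Anxa7, an annexin, was at 41.2, 62.7 and 59.7 with VEH and 99.6, 93.7 and 106 with CIII in F4/80hi Mϕ. Its groups did not overlap, with a log2 difference of 0.88 (SE 0.33, adjusted p = 0.992), and 0.91 without the number 3 libraries. These were the 2 of 17 tested partners with an unadjusted p under 0.05 in F4/80hi Mϕ (3.93% of all genes), and none was called in F4/80lo Mϕ (2.7%). In the blocked fit, and also without the number 3 libraries, Ahnak in F4/80hi Mϕ had an unadjusted p under 0.05 as well (11.3% and 6.97% of all genes). Tlr4 and Anxa7 differed in the direction opposite to S100a8. Both lost the unadjusted call in most fits with 1 F4/80hi library left out. Tlr4 lost it without VEH replicate 1 (0.92) or 2 (1.06) and without CIII replicate 1 (0.94) or 3 (1.12). Anxa7 lost it without VEH replicate 1 (0.695) and without CIII replicate 1 (0.88), 2 (0.93) or 3 (0.84). In F4/80lo Mϕ Tlr4 came under 0.05 without VEH replicate 3 (1.08) or CIII replicate 2 (1.21).

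Anxa2, which encodes the partner of S100a10, was at 753 to 1033 normalized counts with VEH and 838 to 963 with CIII in F4/80lo Mϕ, and at 798 to 1328 and 725 to 1438 in F4/80hi Mϕ, with overlapping groups and log2 differences of 0.12 (SE 0.35) and -0.03 (SE 0.41), the second of which was 0.08 on RPM and 0.20 without VEH F4/80hi replicate 3. Leaving out the number 3 libraries gave 0.0047 and -0.10. Ahnak, a large scaffold protein that binds the complex of annexin A2 and S100a10, was at 1181, 1327 and 1050 with VEH and 2426, 2607 and 1584 with CIII in F4/80hi Mϕ. All CIII libraries lay above all VEH libraries, as in 4.73% of all genes, and the log2 difference was 0.87 (SE 0.39, adjusted p = 0.992). In F4/80lo Mϕ Ahnak was at 1578, 1842 and 2120 with VEH and 1437, 1357 and 1607 with CIII, a log2 difference of -0.32 (SE 0.38). Both kept their sign without the number 3 libraries (1.01 and -0.29). S100a10 and Ahnak thus had opposite signs in F4/80hi Mϕ.

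**Figure D5:**
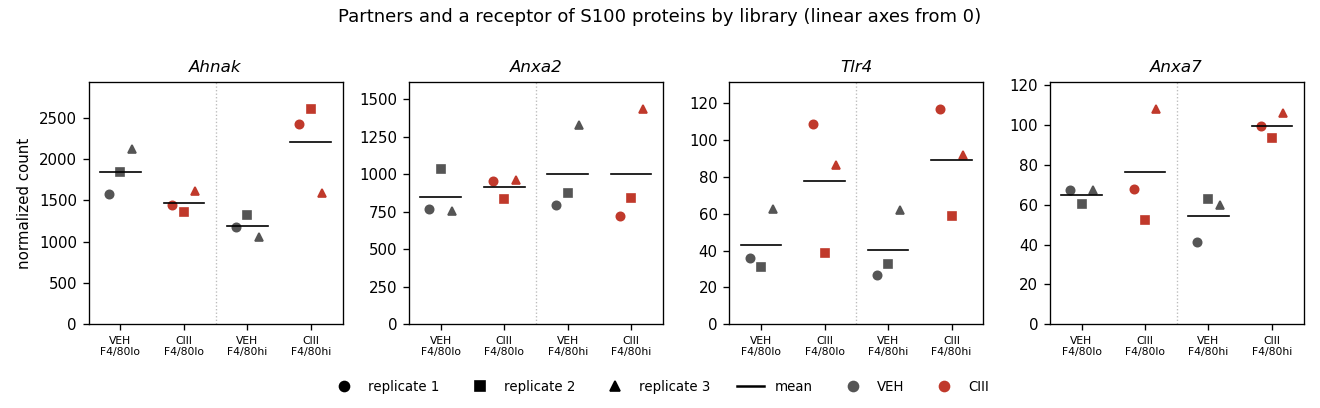
Deposited normalized counts (y axes, linear from 0) of Ahnak, Anxa2, Tlr4 and Anxa7 in each library, by group (x axes). Points are libraries, with shapes for the replicate number, and lines are group means. In F4/80hi Mϕ the CIII libraries lie above all VEH libraries for Ahnak (1584 to 2607 against 1050 to 1327) and Anxa7, whereas Anxa2 shows no separation.

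Anxa1, the partner of S100a11, had log2 differences of -0.32 (SE 0.42) in F4/80lo and -0.42 (SE 0.69) in F4/80hi Mϕ, and -0.64 and -0.46 without the number 3 libraries. Among further receptors, Cd14 had 0.15 and -0.21, Cd36 -0.67 and 0.55, Bsg -0.65 and -0.34, and Emb 0.30 and 0.40, in F4/80lo and F4/80hi Mϕ in turn, all with overlapping groups and none with an unadjusted p under 0.05. Cd36 was at -1.14 in F4/80lo Mϕ once the number 3 libraries were left out (adjusted p = 0.891), where its unadjusted p was under 0.05, as it was without VEH replicate 3 alone (-1.07). Without all 4 number 3 libraries the sign of Cd14 changed in F4/80lo Mϕ (-0.16), as did that of Bsg in F4/80hi Mϕ (0.09). The other values without them were -0.27 for Cd14 and 0.15 for Cd36 in F4/80hi, -0.65 for Bsg in F4/80lo, and 0.28 and 1.10 for Emb in F4/80lo and F4/80hi Mϕ. Ager, the gene of RAGE, had a mean of at most 1.48 normalized counts in any group and was not tested. Of the genes listed for proteins linked to S100a13 export, Fgf1 and Syt1 had no read, and Il1a, named here after its values were seen, was tested in F4/80hi Mϕ alone (log2 difference -1.08, SE 1.09).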

How the data were processed

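Peritoneal Mϕ mRNA was sequenced by the authors with a 3′ kit carrying unique molecular identifiers. Reads were trimmed with Bbduk, mapped to GRCm38 with STAR, collapsed by identifier, counted per gene with HTSeq-count and divided by DESeq2 size factors set per subpopulation. Versions and the strand setting are not given in the sources used here. The deposited values are therefore a normalized signal, not counts, and all values (100%) of each library were whole multiples of 1 read (tolerance 0.1), from which reads were recovered. Depth is 426624 to 3389448 reads on genes, which limits the precision of genes with few reads such as S100a9.

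Symbols and positions came from GENCODE M21 (47224 of 47643 identifiers) and start sites from RefSeq. CIII and VEH were compared within each subpopulation with limma 3.58.1 (R 4.3.3) on log2 (normalized count + 1), in genes with a mean of at least 3. F4/80lo and F4/80hi Mϕ were compared on log2 (RPM + 1), RPM being reads per 1000000 reads on genes, over 12 libraries with 4 group means. The two-sided p was adjusted by the Benjamini-Hochberg method over every gene tested, with a threshold of 0.05. The fits were also run on simulated data, with larger changes than those of the S100 genes and no libraries that stood apart. That run is therefore no check of differences of the size given here. The alternatives were other pseudocounts, minimum means and scalings, library weights, the replicate number as a block, leaving out libraries, and edgeR 4.0.16 and DESeq2 1.42.0 on recovered reads. Similar transcripts were searched with blastn (at least 90% identity over at least 75 bases). The study describes its experiments in general as independent, but the sources used here do not tie each library to a mouse, so p-values measure the spread between these samples.

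The members and gene lists were chosen with earlier results of these data known. Named were the 8 members, other S100 genes with a mean of at least 3 (none had it), partners with an unadjusted p under 0.05 for CIII, and Anxa2, Ahnak, Anxa1, Tlr4, Cd14, Bsg, Emb, Cd36 and Ager in any case. Likeness was ranked for S100a8 and S100a4, with the 5 most alike genes named, except 1 that is not reported here. Libraries with the same replicate number in the labels deviated together from their group means, the correlations across genes of numbers 1, 2 and 3 being 0.121, 0.238 and 0.504 (F4/80lo Mϕ) and 0.216, 0.412 and 0.639 (F4/80hi Mϕ). VEH replicate 1 went more with CIII replicate 2 than with CIII replicate 1 in both (0.171 and 0.285). The pairing is taken from the numbers and deviations alone.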

Additional observations from a re-analysis of the deposited data

Results flagged for a closer look

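Ahnak, the scaffold that binds the complex of annexin A2 and S100a10, had log2 differences between CIII and VEH of opposite sign in the subpopulations. Genes were flagged if all 3 replicate numbers moved together in each subpopulation, in opposite directions. An adjusted p under 0.05 for the difference of the responses would also have flagged a gene. The agreement of the replicate numbers is thus the rule itself and no further support. The share of all genes that meet the rule was not computed. In all 3 replicate numbers Ahnak was lower with CIII in F4/80lo Mϕ (by log2 differences of -0.13, -0.44 and -0.40) and higher with CIII in F4/80hi Mϕ (1.04, 0.97 and 0.59). The CIII and VEH groups of F4/80lo Mϕ overlapped, and the log2 difference of -0.32 had no unadjusted p under 0.05. The difference of the responses, F4/80lo minus F4/80hi, was -1.19 (SE 0.47, 95% interval -2.20 to -0.18, adjusted p = 0.999 in limma over 10097 genes), so it did not pass the threshold over all genes. Without the number 3 libraries it was -1.29 (adjusted p = 0.992).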

How the results depend on the processing

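No S100 gene passed an adjusted p of 0.05 in any of the 5 comparisons, in limma or under any of the 17 alternatives of each CIII comparison and the 23 of each of the others, edgeR and DESeq2 included. At an unadjusted p under 0.05, edgeR and DESeq2 each called 1 member for F4/80lo (2.67% and 2.76% of all genes) and 3 for F4/80hi Mϕ (3.89% and 4.03%), and limma 0 and 3. The fit with the replicate block moved the number of members with an unadjusted p under 0.05 from 0 to 4 in F4/80lo Mϕ, from 3 to 4 in F4/80hi Mϕ and from 1 to 2 between F4/80lo and F4/80hi Mϕ with VEH, and called no member at the adjusted threshold, at which 14 of all genes passed between the subpopulations with VEH and 9 with CIII (0 and 0 without the block). For S100a8 in F4/80hi Mϕ the log2 difference stayed between -2.39 and -1.55 over the 17 alternatives, with an unadjusted p under 0.05 in each and an adjusted p of 0.156 to 1.00. Of 54 single values (members and named partners), 34 kept their sign under every alternative.

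The sign changed in 55 of 1050 recomputed values, none of them past the adjusted threshold, and the cause was not tested. With 1 library left out in turn, the log2 difference between CIII and VEH ranged from -0.35 to 0.040 for S100a6, -0.18 to 0.67 for Cd14 and -0.12 to 0.40 for Anxa7 in F4/80lo Mϕ. In F4/80hi Mϕ it ranged from -1.26 to 0.40 for S100a1, -0.32 to 0.20 for Anxa2, -1.10 to 0.23 for Anxa1, -0.70 to 0.20 for Bsg and -0.51 to 1.07 for Emb. The difference of the responses ranged from -0.18 to 0.59 for S100a10, -0.071 to 0.63 for S100a11 and -0.41 to 0.42 for S100a13. Between F4/80lo and F4/80hi Mϕ the range with VEH was -0.43 to 0.057 for S100a4, -0.11 to 0.56 for S100a11 and -0.61 to 0.35 for S100a13, and with CIII -0.43 to 0.33 for S100a1, -0.039 to 0.23 for S100a6, -0.51 to 0.30 for S100a10 and -0.63 to 0.23 for S100a13.

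Without the number 3 libraries the sign changed for the difference of the responses of S100a10 (-0.045) and S100a13 (-0.48), for S100a4 (0.15) and S100a6 (0.15) between F4/80lo and F4/80hi Mϕ with VEH and for S100a1 (0.16) with CIII, and between CIII and VEH for Cd14 (-0.16) and Anxa7 (-0.092) for F4/80lo and Bsg (0.093) for F4/80hi Mϕ. With library weights it changed for S100a4 between CIII and VEH in F4/80lo Mϕ (-0.039) and for S100a1 (0.22) and S100a10 (0.22) between the subpopulations with CIII. The difference of the responses of S100a13 was -0.0044 with TMM factors and -0.018 with edgeR, and S100a11 between the subpopulations with VEH was at -0.022 with DESeq2. Between CIII and VEH in F4/80hi Mϕ, Anxa2 was at 0.082 on reads per 1000000 reads and 0.0013 with edgeR and with DESeq2, and Emb at -0.087 with edgeR and -0.077 with DESeq2.

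Depth limits what can be said of S100a9 and of other genes with few or no reads, since a count of 0 allows up to 7.03 reads per 1000000 reads in the shallowest library.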

Other observations

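Summed over each list of cell type markers, T and NK cell markers (6 genes) reached at most 16.2 reads per 1000000 reads on genes (RPM) in any library, mast cell and eosinophil markers (6 genes) at most 17.0 and mesothelial markers (5 genes) at most 1.20. B cell markers (6 genes) summed to 19.2 to 129 and 27.8 to 185 RPM in VEH and CIII F4/80lo libraries, and to 0 to 37.1 and 11.5 to 63.9 in VEH and CIII F4/80hi libraries. Dendritic cell markers (6 genes) had median sums of 134 and 139 in VEH and CIII F4/80lo libraries and at most 21.7 in any F4/80hi library. Classical monocyte markers (6 genes) ran from 975 to 2293 and 1214 to 2810 in VEH and CIII F4/80lo libraries and from 292 to 2451 and 734 to 1253 in VEH and CIII F4/80hi libraries, the highest of the VEH F4/80hi group being replicate 3. Resident Mϕ markers (8 genes) ran from 589 to 1674 and 755 to 1528 in VEH and CIII F4/80lo and from 696 to 8159 and 1278 to 5898 in VEH and CIII F4/80hi libraries. Markers of MHCII-high Mϕ (6 genes, Itgb7 among them) ran from 3128 to 14340 and 15000 to 26690 in VEH and CIII F4/80lo and from 810 to 1987 and 1668 to 13960 in VEH and CIII F4/80hi libraries. Their part in the S100 values was not tested.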
